A study of Mus musculus with 12 samples.

Results

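Messenger RNA of 10 nuclear receptor genes was followed in mouse livers labelled as knockouts of LRH-1, the receptor encoded by Nr5a2, and in their controls. The genes were Nr5a2 itself, Nr0b2 (SHP), Nr1h4 (FXR), Nr1h3 (LXR alpha), Nr1i2 (PXR), Nr1i3 (CAR), Ppara, Pparg, Rxra and Esrra (ERR alpha). They were chosen by symbol, with no measured value in the rule, from the 24062 genes listed, and all 10 were found and passed the filter on low counts. Livers came from male mice of 14 weeks on a mixed 129SvEV and C57BL/6 background, and every group carried floxed Nr5a2. Libraries labelled knockout came from mice given AAV8-Cre, a viral vector that brings the Cre recombinase to the liver, and controls, per the series' design text, from mice given AAV8-eGFP. The groups were labelled knockouts on standard diet (SD, n = 3), controls on SD (n = 3), labelled knockouts on high-fat diet (HFD, n = 2) and controls on HFD (n = 4), with 6 weeks of diet. The promoter that drives Cre is not given in the sources used here. The question was how loss of LRH-1 in the adult liver bears on lipid metabolism, and the comparisons below set labelled knockouts against controls within each diet.

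LRH-1 binds DNA as a monomer and keeps genes of bile acid and sterol handling active in hepatocytes. SHP has no DNA-binding domain and acts as a corepressor of LRH-1 and other receptors; it is a textbook target of both LRH-1 and the bile acid receptor FXR. FXR, LXR alpha, PXR, CAR and the PPARs bind DNA with RXR alpha as partner and respond to bile acids, oxysterols, foreign compounds and fatty acids.

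Because SHP was the receptor with the largest difference of the 10 and LRH-1 is known to act at its promoter, the promoter of Nr0b2 is shown with that of Pparg, the receptor that rose. Sequences are from RefSeq, build GRCm38.p6, and run from 250 bases before to 50 bases after the annotated start. Nr0b2 lies at chr4:133553126-133553425 on the plus strand and this Pparg start at chr6:115362099-115362398 on the plus strand. Capitals mark matches to CAAGGNC, a spelling of the LRH-1 response element, and to TCAAGG, its shorter core, which was added after the Nr0b2 window had been read. Both strands were searched, and a site that holds both spellings at once would count under each.
Nr0b2 promoter: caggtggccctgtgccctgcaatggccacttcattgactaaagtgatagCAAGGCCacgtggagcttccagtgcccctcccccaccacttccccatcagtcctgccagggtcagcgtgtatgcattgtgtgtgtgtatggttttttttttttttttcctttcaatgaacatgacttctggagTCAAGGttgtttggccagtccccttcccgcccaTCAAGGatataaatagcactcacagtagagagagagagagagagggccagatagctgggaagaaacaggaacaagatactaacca
Pparg promoter: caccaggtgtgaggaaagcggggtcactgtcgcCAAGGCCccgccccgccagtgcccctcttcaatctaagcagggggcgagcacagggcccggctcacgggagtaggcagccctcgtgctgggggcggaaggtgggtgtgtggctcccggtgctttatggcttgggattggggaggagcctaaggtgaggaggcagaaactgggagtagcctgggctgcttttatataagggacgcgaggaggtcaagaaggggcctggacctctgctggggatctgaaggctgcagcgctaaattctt
The Nr0b2 window held CAAGGCC at 201 bases upstream of the start and TCAAGG at 68 and 35 bases upstream, all on the strand of the gene. The Pparg window shown held CAAGGCC at 217 bases upstream. The other annotated Pparg windows, which begin at chr6:115360894 and chr6:115421816, held neither spelling. Of 15 windows annotated for the 10 genes, 3 held CAAGGNC, those of Nr0b2, Pparg and Esrra, and 1 held TCAAGG. Over all 32851 windows of this length, 17.8% held CAAGGNC, 14.4% held TCAAGG, 1.32% held TCAAGG more than once and 5.77% held both spellings. A match is a stretch of letters and not a measured binding site.

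The series as a whole set limits on each comparison. Libraries held 2371167 to 3404570 counts on SD but 7463792 to 10875478 on HFD, so diet and library depth cannot be told apart. The ribosomal RNA gene Rn45s (0.985% to 1.32% of counts on HFD, against 0.291% to 0.460% on SD) and ribosomal protein genes (0.683% to 0.807% on HFD, against 0.137% to 0.183% on SD) moved with diet as well. HFD control 1 lay apart from the other HFD controls on the second principal component (-3.34 against 11.8 to 18.8), towards the labelled HFD knockouts (-24.4 and -20.6). Hepatocyte markers were present in every group, with 8 of 8 detected. Their sum was 143755 to 187559 CPM in labelled HFD knockouts, against 125894 to 131351 CPM in HFD controls, and overlapped on SD. Most of this sum was Alb, at 141831 and 99103 CPM in labelled HFD knockouts, against 77075 to 84235 CPM in HFD controls. Apob went the other way, at 19680 and 22497 CPM, against 23405 to 24784 CPM. Of the 8 markers 1 was called on HFD, Ttr, which was higher, and their median log2 fold change was -0.12. The summed level of 8 stellate cell and fibroblast markers was 443 to 519 CPM in labelled SD knockouts, against 335 to 398 CPM in SD controls, and 386 to 465 CPM in labelled HFD knockouts, against 260.1 to 393 CPM in HFD controls. Within each diet edgeR called 0 of these 8. Averaged over diets it called 3 higher (Reln, Col1a2 and Col3a1) and 0 lower, beside 3.00% of all genes higher and 5.36% lower. The sum of 6 cholangiocyte markers was 65.0 to 197 CPM in labelled SD knockouts, against 51.4 to 53.9 CPM in SD controls, and overlapped on HFD. Most of it was Spp1, at 51.7, 189 and 88.8 CPM in labelled SD knockouts, against 46.1, 43.4 and 42.4 CPM in SD controls. The sum of 8 endothelial markers was 301 to 321 CPM in labelled HFD knockouts, against 251 to 289 CPM in HFD controls, and overlapped on SD. The sum of 6 enterocyte markers was 456 to 479 CPM in labelled SD knockouts, against 493 to 559 CPM in SD controls, and 556 to 659 CPM in labelled HFD knockouts, against 737 to 982 CPM in HFD controls. Nearly all of it was Fabp2, Anpep and Apoa4, and Lct and Sis had no count in either HFD group. Apoa4 went the other way on SD, at 77.0, 76.9 and 106 CPM in labelled knockouts, against 26.2, 46.2 and 23.2 CPM in controls. There edgeR called Apoa4 higher and Anpep lower. The sum of 8 pancreatic acinar markers was 14.0 to 21.2 CPM in labelled SD knockouts, against 22.6 to 26.6 CPM in SD controls, and overlapped on HFD. Nearly all of it was Cela1, and Pnlip, Cpa1, Amy2a5, Cel and Try4 had no count in any group. Sums of Kupffer cell markers overlapped on both diets. Whether such sums stand for cells of a type, and the part of such cells in the results, was not tested. All comparisons are of bulk RNA, in which fewer cells of a type and less RNA per cell cannot be told apart. Whether each library stands for its own mouse is not stated in words, and p-values therefore refer to the spread among these libraries.

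Levels were compared between genes as CPM (counts scaled to normalized library size) per kb of exon. In SD controls Ppara was highest at a mean of 149 CPM per kb, followed by Nr1h4 at 102 and Rxra at 59.7. These receptors stood at the 98.0th, 97.0th and 95.2th percentile of 11472 genes with a known length. The xenobiotic receptors Nr1i3 (23.1 CPM per kb) and Nr1i2 (16.3) came next, then Nr5a2 (13.8), Nr0b2 (11.4) and Nr1h3 (11.4), whose library ranges overlapped from neighbour to neighbour. Pparg (4.29) and Esrra (0.364) were lowest. Per length of the longest transcript the order of Nr5a2 (17.2 CPM per kb) and Nr1i2 (16.3) turned round, with overlapping ranges. In labelled SD knockouts Nr5a2 had the next highest mean after Rxra, 16.4 CPM per kb, and Nr0b2 was last with no count. The range of Nr5a2 (16.1 to 17.0) lay within that of Nr1i3 (9.79 to 17.3), so their order is not settled. Nr1i2 and Nr1i3 could not be ranked against each other there either, because their library ranges overlapped at means of 13.9 and 13.7 CPM per kb. In labelled HFD knockouts Pparg reached 10.8 CPM per kb, its range overlapping that of Nr1h3 (mean 11.6), and stood at the 77.0th percentile, against 4.50 CPM per kb and the 56.6th percentile in HFD controls. The range of Pparg in HFD controls overlapped that of Nr0b2 (mean 8.71), not that of Nr1h3 (mean 14.0).

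**Figure D1:**
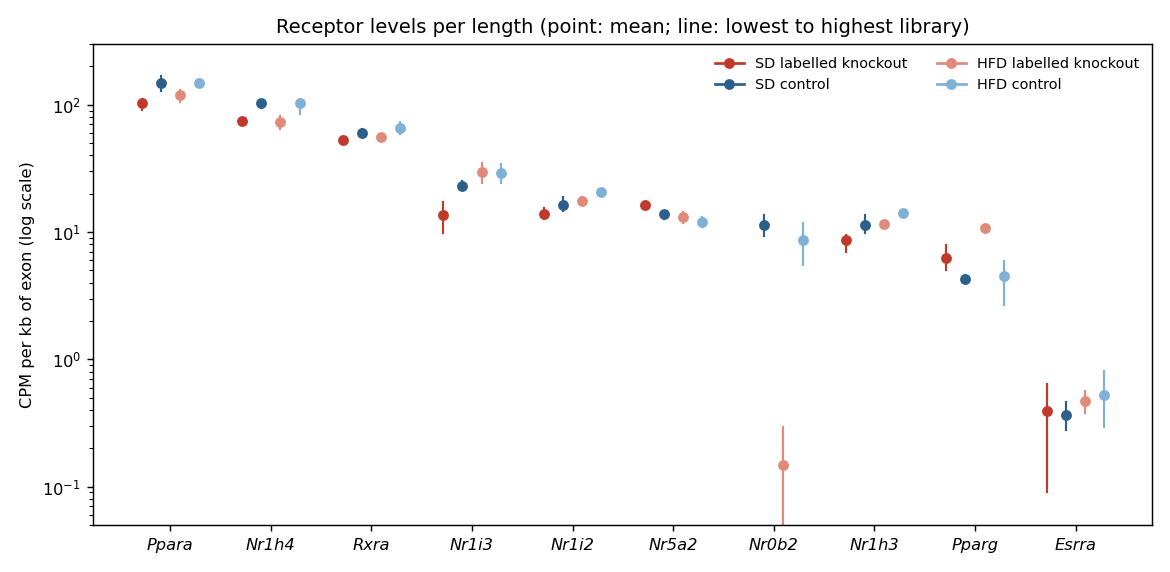
Level of each receptor mRNA in CPM per kb of exon on a log axis, by group, with points for group means and lines from the lowest to the highest library. Ppara, Nr1h4 and Rxra lie above 50 in every group, and Nr0b2 in labelled SD knockouts, at 0 in every library, has no point on this axis. The line of Nr0b2 in labelled HFD knockouts runs to the lower edge because 1 of the 2 libraries was at 0.

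Nr5a2, the gene named as deleted, was not lower in the libraries labelled knockout. It stood at 95.3, 100.1 and 94.7 CPM in labelled SD knockouts, against 84.4, 74.8 and 85.8 CPM in SD controls. In labelled HFD knockouts it stood at 69.1 and 84.5 CPM, against 77.0, 74.5, 64.3 and 66.8 CPM in HFD controls. All 3 labelled SD knockouts lay above all SD controls, and on HFD the groups overlapped. The log2 fold change was 0.24 on SD (SE 0.11, 95% interval 0.00 to 0.49, edgeR adjusted p = 0.288) and 0.12 on HFD (SE 0.11, -0.12 to 0.36, adjusted p = 0.719). Which exons are floxed is not given in the sources used here. In the longest coding transcript of Nr5a2 in the GENCODE annotation, the last of 9 exons holds 3140 of 4733 bases (66.3%) and the sixth 13.5%, while each other exon holds 1.33% to 4.69%. Counts summed over the gene therefore cannot show whether a short exon is missing, and every direction given for labelled knockouts rests on the labels.

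SHP mRNA was all but missing from the labelled knockouts on both diets. Nr0b2 had no count in any of the 3 labelled SD knockouts, against 10.5, 15.3 and 12.8 CPM in SD controls. On HFD it stood at 0 and 0.335 CPM in labelled knockouts, against 6.26, 13.3, 12.4 and 7.54 CPM in controls. No labelled knockout came near any control on either diet. On SD, 0 counts against 107 made Nr0b2 at least 35.9-fold lower, taking 3 counts over the group as the limit of a count of 0 (adjusted p = 0.000381). On HFD, 3 counts against 342 gave a ratio of control to labelled knockout of 51.9, with an exact 95% interval of 17.6 to 253 that covers counting error only (adjusted p = 0.000378). The bound on SD was 23.0 to 38.7 with each library left out in turn. Without HFD knockout 1 the ratio was 28.8 (9.76 to 140.2), and with HFD knockout 2 left out, leaving 0 counts, the gene was at least 23.1-fold lower.

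FXR, the bile acid receptor that induces SHP, had less mRNA in the labelled knockouts. Nr1h4 stood at 167, 169 and 177 CPM in labelled SD knockouts, against 248, 217 and 243 CPM in SD controls. On HFD it stood at 187 and 148 CPM in labelled knockouts, against 195, 249, 257 and 251 CPM in controls. The groups did not overlap on either diet, and HFD control 1 was the control closest to the labelled knockouts. Averaged over both diets Nr1h4 fell by 0.49 on the log2 scale (SE 0.09, adjusted p = 0.00317), 1.40-fold, and it passed in all 17 alternatives. Within a diet the call was marginal. On SD the log2 fold change was -0.46 (SE 0.12, adjusted p = 0.0483). The call ended with RLE normalization (0.0507), with replicate number as a block, and when any single SD library was left out (adjusted p up to 0.155). On HFD it was -0.51 (SE 0.13, adjusted p = 0.0515), and without HFD control 1 the adjusted p was 0.00758.

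PPAR alpha, which drives fatty acid oxidation in the fasted liver, was lower as well. Ppara stood at 421, 422 and 348 CPM in labelled SD knockouts, against 642, 490.3 and 586 CPM in SD controls. On HFD it stood at 502 and 406 CPM in labelled knockouts, against 605, 584, 543 and 548 CPM in controls. Every labelled knockout lay below every control of its diet. Ppara fell on SD (log2 fold change -0.53, SE 0.13, adjusted p = 0.0257) and averaged over diets (-0.43, SE 0.09, adjusted p = 0.00804), while on HFD it did not pass (-0.33, SE 0.13, adjusted p = 0.259). Leaving out SD control 1 or 3, or SD knockout 2 or 3, ended the call on SD (edgeR adjusted p at most 0.132), and the averaged call without HFD knockout 2 (adjusted p = 0.0568).

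PPAR gamma, better known for driving fat storage in adipocytes and in fatty liver, went the other way. Pparg stood at 33.2 and 30.6 CPM in labelled HFD knockouts, against 16.8, 7.82, 11.1 and 17.4 CPM in HFD controls. On SD it stood at 17.3, 23.2 and 15.0 CPM in labelled knockouts, against 12.1, 13.7 and 12.2 CPM in controls. The groups did not overlap on either diet, and the labelled HFD knockouts were the highest of all 12 libraries. Pparg rose 2.39-fold on HFD (log2 fold change 1.26, SE 0.23, 95% interval 0.76 to 1.75, adjusted p = 0.00844) and averaged over diets (0.90, SE 0.19, adjusted p = 0.00673). On SD it did not pass (0.54, SE 0.29, -0.08 to 1.16, adjusted p = 0.367), and the difference between the diets' changes was 0.71 (SE 0.38, adjusted p = 0.720). The call on HFD ended without HFD knockout 1 (adjusted p = 0.0960) or with only the HFD groups in the fit (0.0578), and the averaged call held in all 17 alternatives.

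Per length, Pparg mRNA amounted to 0.0859 and 0.0979 of Ppara mRNA in labelled HFD knockouts, against 0.0360, 0.0174, 0.0266 and 0.0413 in HFD controls. On SD this ratio was 0.0535, 0.0714 and 0.0559 in labelled knockouts, against 0.0245, 0.0362 and 0.0270 in controls. The ratio was higher in every labelled knockout than in any control of either diet. The summed level of 6 adipocyte markers was 38.2 to 69.5 CPM in labelled HFD knockouts, against 2.48 to 4.45 CPM in HFD controls. On SD it was 3.60 to 13.3 CPM in labelled knockouts, against 4.02 to 4.69 CPM in controls. The defining genes Adipoq, Lep and Retn had no count in any group, and Plin1 had 1 count, in HFD knockout 1. The difference on HFD came from Cfd, which encodes adipsin, at 69.1 and 36.8 CPM in labelled HFD knockouts, against 3.09, 0.621, 0.343 and 0.390 CPM in HFD controls. Adrb3, the other marker with counts, stood at 0.278 and 1.34 CPM in labelled HFD knockouts, against 1.36, 1.86, 3.55 and 2.21 CPM in HFD controls (log2 fold change -1.37, SE 0.64, edgeR adjusted p = 0.347).

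CAR, a sensor of foreign compounds and bile acids, had less mRNA in the labelled knockouts on SD. Nr1i3 stood at 76.3, 61.2 and 43.2 CPM in labelled SD knockouts, against 101, 93.6 and 111 CPM in SD controls. On HFD it stood at 154 and 107 CPM in labelled knockouts, against 116, 139, 108 and 152 CPM in controls. The SD groups did not overlap, whereas on HFD the labelled knockouts lay just above and just below the control range. Nr1i3 fell on SD (log2 fold change -0.76, SE 0.20, adjusted p = 0.0396) and stood at 0.02 on HFD (SE 0.19, -0.39 to 0.42, adjusted p = 0.983). Between the diets these changes differed by 0.78 (SE 0.27, 95% interval 0.20 to 1.36), with an unadjusted p of 0.0121 and an adjusted p of 0.545 over all genes, so a difference between diets was not established. The call on SD ended without any single SD library other than SD knockout 1 (adjusted p up to 0.173).

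The remaining receptors gave no call between labelled knockouts and controls. Nr1h3, the oxysterol sensor, stood at 17.7, 23.2 and 24.0 CPM in labelled SD knockouts, against 26.9, 34.2 and 24.7 CPM in SD controls. On HFD it stood at 28.1 and 30.2 CPM in labelled knockouts, against 34.8, 34.6, 37.1 and 34.4 CPM in controls. It was lower in every labelled knockout than in any control of its diet, with a log2 fold change of -0.34 averaged over diets (SE 0.11, -0.56 to -0.11, adjusted p = 0.0656). The xenobiotic receptor Nr1i2 stood at -0.22 (SE 0.09, adjusted p = 0.154) and the shared partner Rxra at -0.19 (SE 0.08, adjusted p = 0.155) averaged over diets. Rxra ranged from 285 to 295 CPM in labelled SD knockouts, against 307 to 349.7 CPM in SD controls, and from 293 to 318 CPM in labelled HFD knockouts, against 324 to 401 CPM in HFD controls. Esrra, a regulator of mitochondrial genes, was too low for a precise statement. It stood at 0.400 to 2.79 CPM in labelled SD knockouts, against 1.22 to 2.01 CPM in SD controls, and its log2 fold change there had an interval of -1.21 to 1.56.

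**Figure D2:**
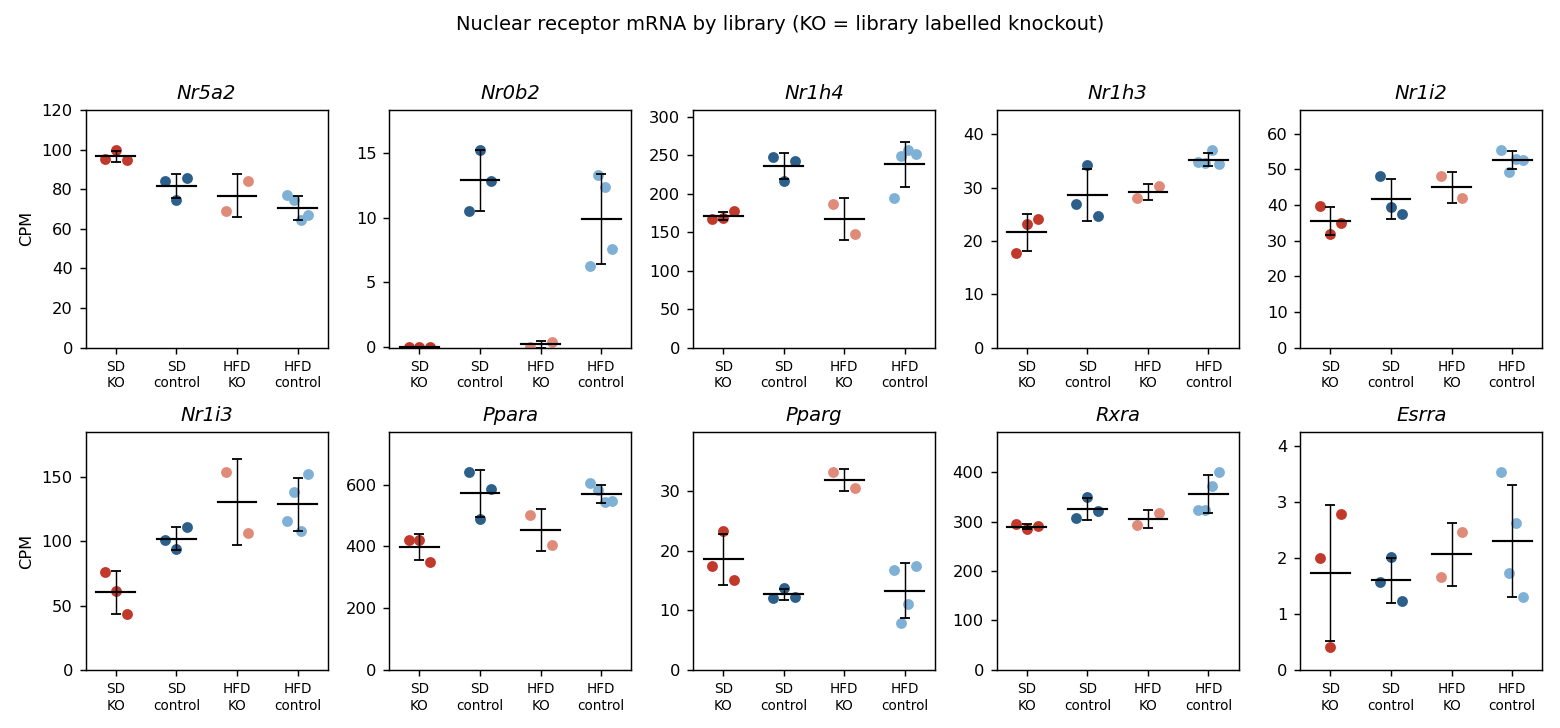
CPM of the 10 receptor mRNAs in each library, with 1 point per library, a line at the group mean and bars of 1 standard deviation, for labelled knockouts (KO) and controls on SD and on HFD. Nr0b2 is at or near 0 in labelled knockouts on both diets, Nr1h4, Nr1h3 and Ppara lie below the controls of their diet, and Pparg lies above them.

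Counted together, 4 of the 10 receptors were called on SD, all lower in labelled knockouts (Nr0b2, Nr1h4, Nr1i3 and Ppara). Of all 12015 genes tested, 4.38% were called on SD, 2.94% lower and 1.44% higher. On HFD 2 were called, Nr0b2 lower and Pparg higher, beside 2.70% of all genes, 1.66% lower and 1.04% higher. Averaged over diets 4 were called, Nr0b2, Nr1h4 and Ppara lower and Pparg higher, beside 8.36% of all genes, 5.36% lower and 3.00% higher. The groups did not overlap for 8 receptors on SD, where 22.6% of all genes did not, and for 7 on HFD, where 22.2% did not. The median log2 fold change of the 10 was -0.31 on SD, beside 0.00 for all genes, and -0.22 on HFD, beside -0.01. In the test of whether the knockout effect differed by diet, 0 receptors and 0.00% of all genes passed with edgeR. At an unadjusted p under 0.05 the counts were 1 receptor and 911 genes, and with DESeq2 0 receptors and 33 genes passed. On SD, leaving out any library other than SD knockout 1 or SD control 2 left Nr0b2 as the 1 receptor called, and without HFD knockout 1 it was the 1 called on HFD. Without SD control 2, Nr0b2 and Ppara were called, and without SD knockout 1, Nr0b2, Nr1i3 and Ppara.

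**Figure D3:**
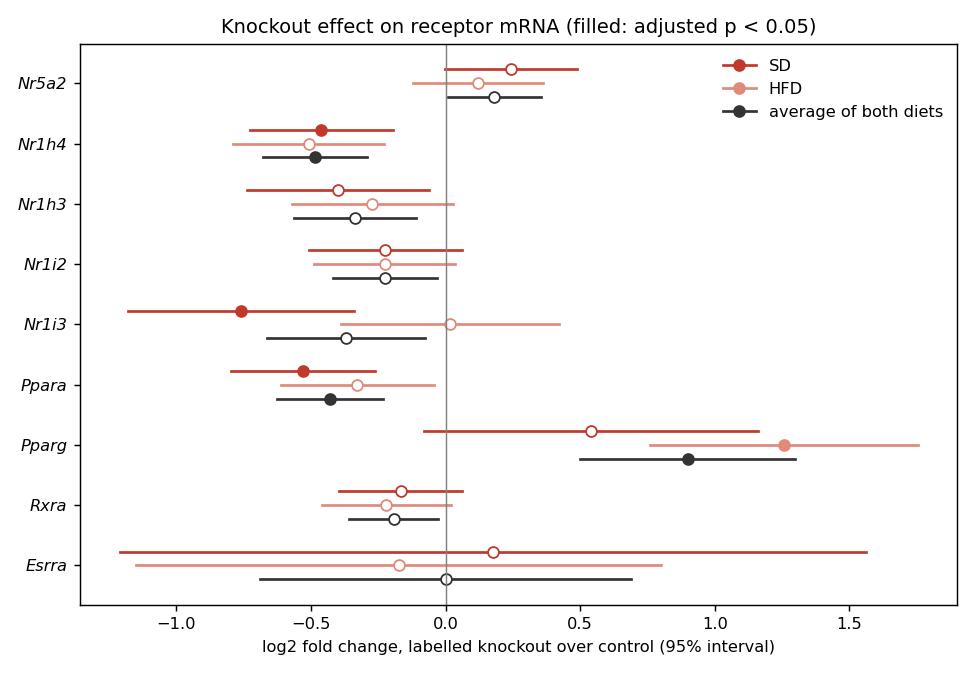
Log2 fold change of 9 receptor mRNAs in labelled knockouts over controls with 95% intervals, on SD, on HFD and averaged over both diets, with filled points at an adjusted p under 0.05. Nr0b2 is left out because a group without counts gives no fold change. Averaged over diets Nr1h4 (-0.49) and Ppara (-0.43) lie left of 0 and Pparg (0.90) right of it, and the interval of Esrra is the widest.

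Few of these receptors were called between the diets. In controls 1 of 10 was called, higher on HFD than on SD, beside 30.1% of all genes called, 16.5% higher and 13.6% lower. It was Nr1i2, at 55.5, 49.4, 52.9 and 52.5 CPM in HFD controls, against 48.0, 39.4 and 37.5 CPM in SD controls (log2 fold change 0.34, SE 0.12, adjusted p = 0.0372). All HFD controls lay above all SD controls, as for 2 of the 10 receptors whose diet groups did not overlap in controls, beside 37.2% of all genes, but the call ended with DESeq2 (adjusted p = 0.0644), after thinning to equal depth (0.0541) and without SD control 2 or 3 or HFD control 1, 3 or 4 (up to 0.170). In labelled knockouts 2 of 10 were called higher on HFD, beside 26.6% of all genes called, 14.9% higher and 11.7% lower. The diet groups did not overlap for 5 receptors in labelled knockouts, beside 52.7% of all genes. Nr1i3 was 2.16-fold higher in labelled HFD than in labelled SD knockouts (log2 1.11, SE 0.21, adjusted p = 0.00105), and this call held in all 11 alternatives. Pparg was 1.73-fold higher (log2 0.79, SE 0.27, adjusted p = 0.0408). This call ended with DESeq2 (0.0527), with replicate number as a block, and without SD knockout 1 or 3 or either HFD knockout. In controls the change of Pparg with diet was 0.08 (SE 0.26, -0.48 to 0.63, adjusted p = 0.858).

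Textbook target genes of each receptor were set beside the receptor itself. Counts for each list below stand beside shares over all 12015 genes. On SD 4.38% of all genes were called, 2.94% lower and 1.44% higher. On HFD 2.70% were called, 1.66% lower and 1.04% higher. Among 9 genes listed as bile acid and sterol targets of LRH-1 and SHP, 8 fell and 0 rose on SD (median log2 fold change -1.57). On HFD 6 fell and 0 rose (median -0.99). Nr0b2, which is SHP itself, is among these 9 and fell on both diets. On SD the member that did not pass was Cyp7a1, the rate-limiting enzyme of bile acid synthesis, at 0.24 on SD (SE 0.45, -0.72 to 1.19, adjusted p = 0.853) and 0.19 on HFD (SE 0.47, -0.81 to 1.19, adjusted p = 0.917). Cyp7a1 spread from 329 to 2445 CPM among the SD controls alone. Of 6 tested FXR targets 3 fell on SD and 2 on HFD, and 0 rose (medians -0.58 and -0.46). Beside Nr0b2 they were the phosphatidylcholine flippase gene Abcb4 on both diets (2.01-fold lower on SD, adjusted p = 0.000128, and 1.94-fold lower on HFD, adjusted p = 0.000234) and the bile salt export pump gene Abcb11 on SD (-0.69, SE 0.13, adjusted p = 0.00813). Abcb11 stood at -0.53 on HFD (SE 0.14, adjusted p = 0.0626). Nr0b2 and Abcb11 are also on the list of LRH-1 and SHP targets, so these lists are not separate measurements.

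Of 10 LXR targets 3 fell and 0 rose on SD, the sterol exporter subunits Abcg5 (-1.82) and Abcg8 (-1.57) and Srebf1, which switches on lipogenesis (-0.81, SE 0.17, adjusted p = 0.0138). On HFD Abcg5 (-1.06, SE 0.21, adjusted p = 0.0124) and Abcg8 (-0.99) fell, and both are on the LRH-1 list too. The median of the LXR targets was -0.30 on SD and 0.00 on HFD. The Srebf1 call ended when SD control 3 or SD knockout 1 was left out (edgeR adjusted p at most 0.0838), and Abcg5 its call on HFD without HFD knockout 1 or 2 (up to 0.157). Of 17 tested PPAR alpha targets 1 fell on SD, Acaa1b, which encodes a thiolase of peroxisomes (-1.19, SE 0.24, adjusted p = 0.00911), and 0 rose (median -0.32). A count of 1 of 17 lies near the share of all genes called on SD, 4.38%. At an unadjusted edgeR p under 0.05 the count on SD was 7 of 17, beside 2120 of all 12015 genes. On HFD edgeR called 0 of these 17 (median -0.06), with 2 at an unadjusted p under 0.05, beside 1687 of all 12015 genes. Cpt1a, which imports fatty acids into mitochondria, stood at -0.15 on SD (SE 0.14) and -0.45 on HFD (SE 0.15) and did not pass on either diet. Acaa1b lost its call without SD knockout 2 or 3 (adjusted p up to 0.0552).

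Targets of PXR and CAR moved in both directions. Cyp2c55, a cytochrome P450 inducible through these receptors, stood at 109, 74.8 and 74.5 CPM in labelled SD knockouts, against 19.1, 24.9 and 20.4 CPM in SD controls. On HFD it stood at 86.7 and 38.4 CPM in labelled knockouts, against 8.26, 5.59, 4.69 and 4.03 CPM in controls. It was higher in every labelled knockout than in any control (log2 fold change 2.01, SE 0.30, adjusted p = 0.00113 on SD, and 3.43, SE 0.29, adjusted p = 1.54e-05 on HFD). The organic anion transporter gene Slco1a4 rose too (2.21-fold on SD, adjusted p = 0.0237, and 2.27-fold on HFD, adjusted p = 0.0235). Its averaged change (1.16, adjusted p = 0.00109) held in all 17 alternatives, while the calls within a diet did not. Leaving out SD control 2 or 3, or SD knockout 1 or 2, ended the call on SD (edgeR adjusted p at most 0.115), and leaving out HFD control 2, 3 or 4, or either HFD knockout, ended the call on HFD (at most 0.229). The basolateral exporter gene Abcc3, a target on the LRH-1 list as well, fell (-2.48 on SD and -1.63 on HFD), as did Cyp3a13 on SD (-0.77, SE 0.16, adjusted p = 0.0128). Cyp2b10, the classic CAR target, stood at 89.7, 24.8 and 15.7 CPM in labelled SD knockouts, against 29.3, 5.63 and 9.46 CPM in SD controls. On HFD it stood at 61.0 and 54.8 CPM in labelled knockouts, against 22.7, 18.6, 1.03 and 8.71 CPM in controls. Cyp2b10 passed on neither diet alone but did averaged over diets (1.87, SE 0.52, edgeR adjusted p = 0.0365). In all 2 of 14 rose and 2 fell on SD (median 0.10), and 2 rose and 1 fell on HFD (median 0.78), beside 4.38% of all genes called on SD and 2.70% on HFD. At an unadjusted edgeR p under 0.05 there were 5 of 14 on SD and 10 on HFD, beside 2120 and 1687 of all 12015 genes. Abcc3 on HFD and Cyp3a13 on SD lost their calls without some libraries (HFD control 2 or 4 or either HFD knockout, adjusted p up to 0.176, and SD control 3 or SD knockout 2 or 3, up to 0.0773).

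Of 7 tested genes that PPAR gamma controls in fatty liver, 3 rose and 0 fell on HFD (median 0.66), beside 1.04% of all genes called higher and 1.66% lower. Cidec, a lipid droplet protein that enlarges droplets, stood at 42.8 and 15.6 CPM in labelled HFD knockouts, against 7.53, 1.74, 1.83 and 1.95 CPM in HFD controls (log2 fold change 3.07, SE 0.47, adjusted p = 0.00208). Plin4, another droplet coat protein, stood at 59.1 and 41.4 CPM in labelled HFD knockouts, against 24.2, 7.20, 7.10 and 8.19 CPM in HFD controls (2.07, SE 0.43, adjusted p = 0.0164). Mogat1, an acyltransferase of triglyceride synthesis, stood at 5.28 and 2.34 CPM in labelled HFD knockouts, against 1.36, 0.745, 0.343 and 1.17 CPM in HFD controls (2.01, SE 0.50, adjusted p = 0.0447). For these 3 genes HFD knockout 1 was the highest library and the HFD groups did not overlap, and HFD control 1 was the highest control. The fatty acid transporter gene Cd36 (0.34, SE 0.29, adjusted p = 0.672) and the droplet coat gene Plin2 (0.26, SE 0.21, adjusted p = 0.651) did not pass. On SD 1 of the 7 rose, Cidec (3.25, SE 0.82, adjusted p = 0.0354), at 15.0, 10.4 and 9.40 CPM in labelled knockouts, against 1.95, 1.61 and 0.305 CPM in controls. Without HFD knockout 1 neither Cidec (adjusted p = 0.0993) nor Plin4 (0.214) passed on HFD; Plin4 did not pass with DESeq2 either (0.0545) or without HFD control 2 or 4 (up to 0.0586), and the Cidec call on SD ended whichever SD library was left out (at most 0.175). Mogat1 lost its call with only the HFD groups in the fit (0.114) and was not tested in most fits that left out a library, and averaged over diets Cidec (3.16) and Plin4 (2.09) passed in all 17 alternatives.

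Of 8 ERR alpha targets edgeR called 0 on SD and 0 on HFD, with 1 and 2 at an unadjusted p under 0.05 (medians 0.15 and 0.20). The same medians over all genes were 0.00 on SD and -0.01 on HFD. Of all 12015 genes, 2120 on SD and 1687 on HFD were at an unadjusted p under 0.05. All lists were chosen with results of these data known, and their counts describe them without a test of the list.

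**Figure D4:**
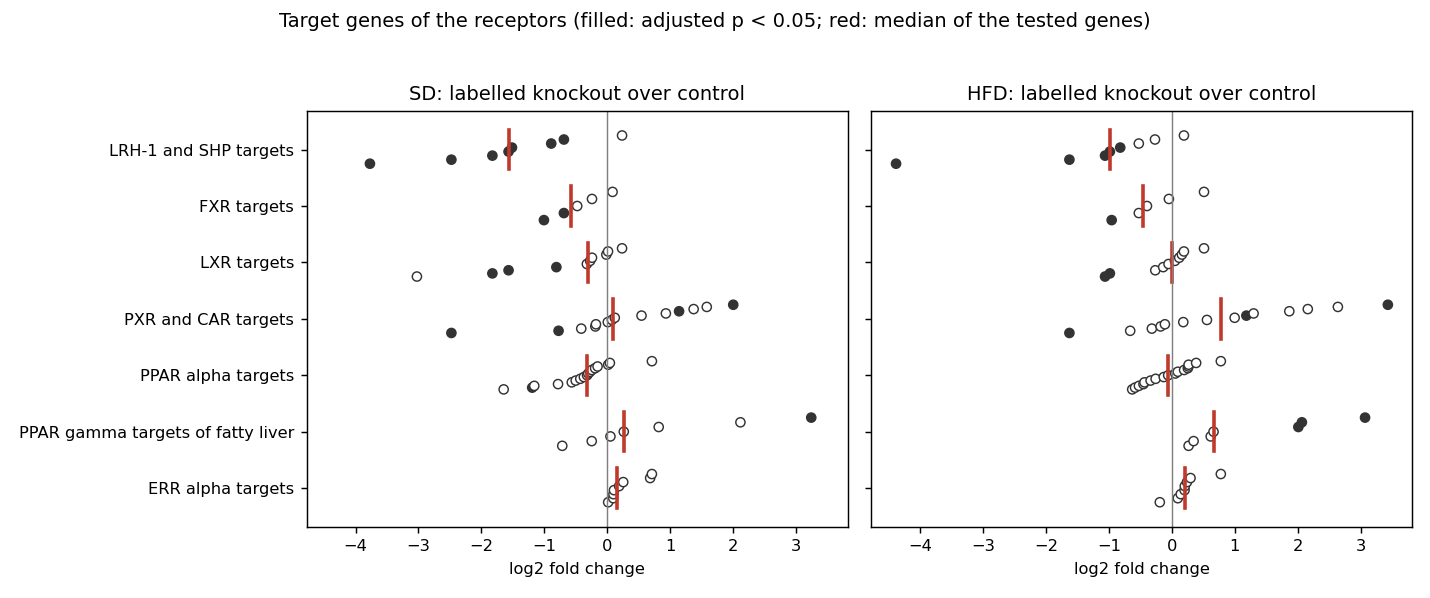
Log2 fold change, labelled knockout over control, of the tested target genes of each receptor on SD (left) and HFD (right), with 1 point per gene (Nr0b2 left out), filled at an adjusted p under 0.05. A red line marks the median of each list's tested genes, in which Nr0b2 is counted where it is listed. The medians of the LRH-1 and SHP targets lie at -1.57 and -0.99, and the filled points among PPAR gamma targets lie right of 0.

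**Figure D5:**
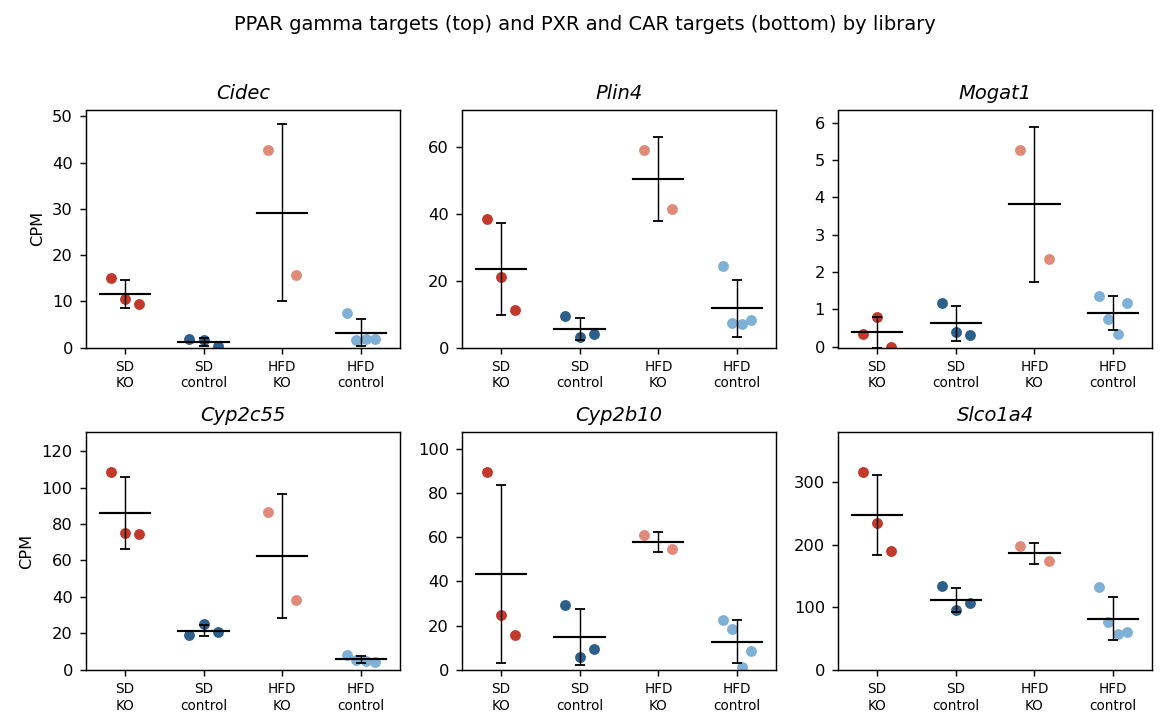
CPM of 3 PPAR gamma targets (top) and 3 PXR and CAR targets (bottom) in each library, with 1 point per library, a line at the group mean and bars of 1 standard deviation. Cyp2c55 is higher in every labelled knockout (KO) than in any control, and Cidec, Plin4 and Mogat1 are highest in labelled HFD knockouts.

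Other nuclear receptors and their coregulators gave few calls, beside 4.38% of all genes called on SD and 2.70% on HFD. At an unadjusted edgeR p under 0.05 there were 2120 of all 12015 genes on SD and 1687 on HFD. Of 26 tested other receptors, 1 was called lower on SD. It was the orphan receptor gene Nr2c1, which fell on SD (-0.81, SE 0.20, adjusted p = 0.0303) and stood at -0.51 on HFD (SE 0.19, adjusted p = 0.219). Its call on SD ended without any single SD library (adjusted p up to 0.131), and averaged over diets (-0.66, adjusted p = 0.00706) it held in all 17 alternatives. On HFD edgeR called 0 of the 26. At an unadjusted p under 0.05 there were 11 of the 26 on SD and 5 on HFD. The sister genes Nr1h2 (LXR beta) and Ppard (PPAR delta) stood at -0.36 (SE 0.38) and 0.00 (SE 0.44) on SD and at 0.08 (SE 0.23) and -0.05 (SE 0.29) on HFD, and Hnf4a, a master regulator of hepatocytes, at -0.06 (SE 0.09) and 0.07 (SE 0.10). Of 19 coregulators 1 rose on SD, Lpin1 (1.46, SE 0.36, adjusted p = 0.0295), which also makes diacylglycerol, and edgeR called 0 on HFD, with 1 at an unadjusted p under 0.05. The Lpin1 call ended whichever SD library was left out, with the exception of SD control 1 (edgeR adjusted p at most 0.155).

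The genes whose pattern was most like that of a receptor were found by Pearson's r over the 12 libraries, with log2 CPM centred within each diet, among 8946 genes. For Nr0b2 they were Gjb2 (r = 0.982), Paqr9, Cml2, Tnfaip8l1 and Nit2 (0.976). Paqr9 stood at 28.7, 30.8 and 28.9 CPM in labelled SD knockouts, against 343, 359 and 227 CPM in SD controls, and at 28.6 and 27.8 CPM in labelled HFD knockouts, against 236, 357, 303 and 345 CPM in HFD controls. The gap junction gene Gjb2 showed the same split, at 169 to 234 CPM over all 5 labelled knockouts, against 359.8 to 517 CPM over all 7 controls. For Nr5a2 the most alike were Tbc1d8b (0.910), Ccnc, Zfp1, Rnf41 and Rnf111 (0.902), and for Pparg Setd8 (0.879), Gc, Lrrc32, Myadm and Crtc3 (0.871). The libraries fall into groups by genotype. For Nr0b2 and Pparg these values therefore describe the split between labelled knockouts and controls as much as likeness within a group. The Nr5a2 groups overlapped on HFD, and the part of such a split in its values was not tested.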

How the data were processed

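Liver RNA was sequenced in 12 samples, 1 library each. RNA was extracted from frozen liver with Trizol and made into libraries with a Nugen Ovation kit, per the labels' protocols. The submitters' processing notes name TopHat2 2.1.0, HTSeq, DESeq2 1.14.1 and build mm9. How strand and multiply mapping reads were handled is not given in the sources used here. The deposited values are raw counts, whole numbers for each gene symbol.

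The two-sided quasi-likelihood test of edgeR 4.0.16 was run under R 4.3.3 and limma 3.58.1 with TMM normalization, filterByExpr with a minimum count of 10, 4 group means and 1 spread over all 12 libraries (common biological coefficient of variation 0.153). The filter left 12015 genes, over which p-values were adjusted by Benjamini-Hochberg, with 0.05 as the threshold for a call. The effect averaged over diets gives both diets equal weight. SE were derived from the test statistic, and CPM use normalized library sizes. Intervals and limits for a count of 0 (3 counts over a group, 95% exact intervals) cover counting error only. Lengths for CPM per kb are exon unions of GENCODE genes on GRCm38, matched by symbol for 94.6% of the genes listed, since no annotation of mm9 was used here. The procedure was checked on simulated counts with known fold changes.

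The 10 genes, the lists and the tests were chosen with earlier results of these data known. Named genes are the 10 receptors, up to 4 genes with the smallest p per list among those that passed in a knockout comparison, and the 5 genes most alike to Nr5a2, Nr0b2 and Pparg. Genes named that did not pass were chosen after their values were seen. The alternatives tried were RLE normalization, DESeq2 1.42.0, fits without the filter, fits of only the groups compared, thinning to the smallest library, a replicate block, fits without each library, and the longest transcript as length. Same-numbered samples did not deviate together, so numbers were not used as pairs. No libraries were identical. Some genes of the lists are not reported here by name.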

Additional observations from a re-analysis of the deposited data

Results flagged for a closer look

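In HFD controls, Nr1h4 stood at 195 CPM in HFD control 1, far from the nearest of the other 3 libraries at 249 CPM, a gap of 0.866 of the group's whole range. Nr1h3 stood at 37.1 CPM in HFD control 3, against 34.8 CPM in the nearest library, a gap of 0.883 of the range, although that range is narrow. These were 2 of the 10 receptors examined in this way in HFD controls, the only group of 4 libraries, and chance gives about 1 in 20. All 10 were measured in the same libraries, so they are not separate trials.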

How the results depend on the processing

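With each library left out in turn, the number of genes called was 220 to 498 for the knockout effect on SD (526 with all libraries), 85 to 602 on HFD (325), 660 to 1222 averaged over diets (1005), 1978 to 2733 for diet in labelled knockouts (3196) and 0 to 4 for whether the knockout effect differed by diet (0). The number of receptors called was 1 to 3 on SD (4), 1 to 3 on HFD (2), 0 to 1 for diet in controls (1) and 1 to 2 for diet in labelled knockouts (2). On HFD the total was 518 with no filter on low counts, 215 after thinning and 127 with only the groups compared, where 1 receptor was called. For diet in controls 0 receptors were called with DESeq2 and 0 after thinning, and for diet in labelled knockouts 1 was called with DESeq2. The difference between diets gave 33 genes with DESeq2 and 17 with no filter. Same-numbered libraries did not deviate together (r of -0.0127 to 0.0468 on SD and 0.00886 and 0.121 on HFD). With the replicate block the totals were 595 on SD, 227 on HFD and 1 for the difference between diets, and 3 receptors were called on SD, without Nr1h4 (adjusted p = 0.0630), 2 on HFD, and 1 for diet in labelled knockouts, without Pparg (0.0539). Per length of the longest transcript, levels in SD controls were 17.2 CPM per kb for Nr5a2, 117 for Nr1h4, 14.4 for Nr1h3, 34.2 for Nr1i3, 5.96 for Pparg, 66.4 for Rxra and 0.642 for Esrra. Called values of the receptors and named genes kept their sign under all of these alternatives. The causes of these shifts were not tested. Leaving out 1 HFD knockout leaves a lone library that is assumed to vary like the other groups. Depth limits Esrra and Nr0b2, whose low counts leave wide intervals.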

Other observations

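Some target genes and partners of the receptors differed between the diets, whose libraries also differ in depth and in their share of ribosomal protein and Rn45s counts, as given above. The part of these in the differences was not tested. In controls 30.1% of all genes were called between the diets, 16.5% higher and 13.6% lower on HFD, and in labelled knockouts 14.9% were higher and 11.7% lower. Of 8 ERR alpha targets 5 were higher in HFD than in SD controls and 0 lower (median log2 fold change 0.50, beside 0.02 for all genes), and 4 were higher and 1 lower in labelled HFD than in labelled SD knockouts. Among them Cox5b, a subunit of cytochrome c oxidase, stood at 42.3 to 56.5 CPM in HFD controls, against 8.20 to 15.6 CPM in SD controls (1.94, SE 0.20, edgeR adjusted p = 2.85e-06). Cycs, which encodes cytochrome c and has near-identical pseudogene copies that could share its reads, stood at 203 to 252 CPM in HFD controls, against 0.916 to 4.42 CPM in SD controls.

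Of 19 nuclear receptor coregulators, 8 were lower and 1 higher in HFD than in SD controls, beside 13.6% of all genes lower and 16.5% higher. In labelled HFD over labelled SD knockouts 9 were lower and 1 higher, beside 11.7% of all genes lower and 14.9% higher. The coactivator genes Ncoa6 (-0.93, SE 0.11, adjusted p = 9.35e-06) and Ncoa2 (-0.64, SE 0.09, adjusted p = 5.95e-05) and the corepressor gene Ncor1 (-0.47, SE 0.09, adjusted p = 0.000974) were among the 8 lower in HFD controls. Of 7 PPAR gamma targets 2 rose in HFD over SD controls, Plin2 (1.19, SE 0.20, adjusted p = 0.000356) and Cd36 (1.32, SE 0.29, adjusted p = 0.00293).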
